A study of Mus musculus with 6 samples.

Results

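The genes described here are 10 genes of the circadian clock, namely Arntl, Clock, Npas2, Per1, Per2, Per3, Cry1, Cry2, Nr1d1 and Dbp. They were chosen by name from the 37620 genes in the deposited table. All 10 were found, and all 10 were among the 16127 genes tested, those whose normalized counts averaged 10 or more. A normalized count is a number of reads divided by a size factor for its library. RNA came from the pre-limbic cortex (PLc), which lies in the medial prefrontal cortex, of C57Bl/6 mice aged 9 weeks, with no transgene or mutation named in the labels. All mice were injected intraperitoneally once daily for 5 days and killed 2 days later. Saline mice 1, 6 and 10 received the vehicle, and ketamine mice 3, 5 and 9 received 30 mg/kg of ketamine, an antagonist of the NMDA receptor. Each mouse gave 1 library, and the mouse is the replicate.

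The clock is a feedback loop of transcription that runs in nearly all cells. ARNTL (also called BMAL1) pairs with CLOCK or its paralogue NPAS2, and the pair binds E-box sequences and switches on the Per and Cry genes, whose products then return to the nucleus and repress the pair. NR1D1, a nuclear receptor that is itself switched on through E-boxes, represses Arntl, and DBP carries the rhythm to output genes through D-box sequences. In the brain of mice the transcripts of Per1, Per2, Per3, Nr1d1 and Dbp are known to peak during the day and around dusk, whereas those of Arntl, Clock and Npas2 tend to peak in the night and around dawn, so that their levels depend on the hour at which tissue is taken. The mice were kept on a constant cycle of light and dark. The hour of dissection is not given in the sources used here, so a difference in the time of collection can be looked for only in the levels of the genes themselves.

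The elements through which clock proteins act can be read in the sequence before 2 of these genes. Cry1 is shown because it was the only member whose groups did not overlap, and Per3 because it held 2 D-boxes, the element bound by the product of Dbp, another member. Each sequence covers the 250 bases before the start of transcription in RefSeq (GRCm38.p6), is given from 5′ to 3′ on the strand of the gene, and was placed on mm9 by an exact match. Capitals mark matches to the E-box (CACGTG), the related E-prime box (CACGTT, or AACGTG on the other strand) and the D-box (TTATGTAA or TTACGTAA).
Cry1, minus strand, chr10:84647800-84648049: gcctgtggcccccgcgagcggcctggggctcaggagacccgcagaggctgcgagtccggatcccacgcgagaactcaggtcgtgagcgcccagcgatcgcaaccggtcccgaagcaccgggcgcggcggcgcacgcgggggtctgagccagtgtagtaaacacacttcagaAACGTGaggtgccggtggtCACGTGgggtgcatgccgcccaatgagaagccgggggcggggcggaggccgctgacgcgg
Per3, minus strand, chr4:150418775-150419024: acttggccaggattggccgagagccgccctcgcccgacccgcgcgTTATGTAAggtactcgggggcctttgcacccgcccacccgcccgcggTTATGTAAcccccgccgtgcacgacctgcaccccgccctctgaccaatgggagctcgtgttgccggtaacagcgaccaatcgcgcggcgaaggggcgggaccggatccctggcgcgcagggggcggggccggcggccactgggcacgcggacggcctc
The E-box of Cry1 began 60 bases before the start and its E-prime box 79 bases before it, and the D-boxes of Per3 began 158 and 205 bases before the start. Both strands were searched, and no match overlapped another. Among all 32851 windows of this kind in RefSeq, 6.02% held an E-box, 3.85% an E-prime box and 0.931% a D-box. In the windows found for 9 of the members, an E-box was also seen in Per1 (166 bases before the start) and an E-prime box in Cry2 (166) and Nr1d1 (28). The ROR element (TAGGTCA or TGGGTCA, in 5.38% of all windows) and the cAMP-response element (TGACGTCA, in 1.55%) had no match in these windows. Such a match describes the letters only.

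The 6 libraries held between 26273436 and 32643726 reads, recovered from the normalized counts. They differed in the tissue they contained, as far as marker genes show it. The summed normalized counts of 14 striatal markers were 69828 and 35210 in ketamine mice 3 and 5, against 9275 to 12162 in the saline mice and 9986 in ketamine mouse 9. Those of 5 olfactory bulb markers were 9544 in ketamine mouse 9, 1622 and 1462 in ketamine mice 3 and 5, and 214 to 287 in the saline mice. Saline mouse 10 stood apart by its 5 oligodendrocyte markers, at 362253 against 53335 and 41701 in saline mice 1 and 6. Ketamine mice 3, 5 and 9 held 153948, 100550 and 110198. Without saline mouse 10, every ketamine mouse was thus above every saline mouse for these markers. The 4 choroid plexus markers of saline mouse 10 summed to 3070, of which Ttr made up 2421, against 73 to 734 in all other mice. The 8 markers of cortical excitatory neurons, the cells that define the tissue, summed to 46961 at the lowest and 68654 at the highest in saline mice, with 29148 and 53862 as the bounds in ketamine mice. No list had a marker at 0 in every mouse. The members, the counts of groups that did not overlap and the contrast by phase were also computed without these mice. The genes of the other lists were not. Every ketamine mouse held more olfactory bulb markers than every saline mouse, so leaving out mice could not tell the tissue from the treatment. In bulk tissue, fewer cells of a type and less RNA in each cell cannot be told apart.

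None of the 10 clock genes passed the test between ketamine and saline mice. Log2(normalized count + 1) was compared with limma over all genes tested, and the smallest adjusted p among the members was 0.865, for Cry1. limma called 0% of all genes tested at an adjusted p under 0.05, and edgeR's quasi-likelihood test on the recovered reads also called 0%. DESeq2 on the same reads called 1.13% of all genes and 0 of the members, among which its smallest adjusted p was 0.721. At an unadjusted p under 0.05, limma found 0 of the members and 5.81% of all genes, whereas edgeR and DESeq2 each found 1 member, Cry1, and 6.24% and 6.54% of all genes. Of the 10 members, 3 had a higher and 7 a lower mean in ketamine mice. Their median log2 fold change was -0.17, beside -0.01 over all genes tested. The median standard deviation between mice of a group was 0.245 on the log2 scale for the members and 0.266 for all genes.

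The 3 genes of the activating arm all had a lower mean in ketamine mice, and none passed the test. The difference was smaller than the standard deviation between mice of a group on the log2 scale for Clock (0.483) and Npas2 (0.521), and larger than it for Arntl (0.224). Arntl (ENSMUSG00000055116, chromosome 7 of mm9 from 120350979 to 120457636) encodes the partner that both CLOCK and NPAS2 need. It had 918, 822 and 620 normalized counts in saline mice 1, 6 and 10, against 626, 708 and 599 for ketamine mice 3, 5 and 9. Saline mouse 10 lay among the ketamine mice, and without it every ketamine mouse was below every saline mouse, where 31.8% of all genes tested did not overlap without that mouse. Saline mice averaged 787 ± 152 and ketamine mice 645 ± 56.8 normalized counts (SD, 3 mice each), which makes a log2 fold change of -0.27 (standard error, SE, 0.178; limma adjusted p = 0.999), and the 95% interval of the fold ran from 0.62 to 1.11. The change was -0.43 without saline mouse 10 and -0.15 without saline mouse 1, and no adjusted p passed the threshold in either fit.
Clock (ENSMUSG00000029238, chromosome 5 from 76639992 to 76733817) had 2788, 2328 and 1989 normalized counts in saline mice 1, 6 and 10, against 2568, 2572 and 1195 for ketamine mice 3, 5 and 9. Ketamine mouse 9 alone was below the saline mice, while the other ketamine mice lay within their range. The log2 fold change of -0.24 (SE 0.312) turned to 0.13 without ketamine mouse 9.
Npas2 (ENSMUSG00000026077, chromosome 1 from 39250576 to 39420079), whose product can stand in for CLOCK in the forebrain, had 1385, 1249 and 691 normalized counts in saline mice 1, 6 and 10, against 1025, 1150 and 601 for ketamine mice 3, 5 and 9. A pair of mice, saline mouse 10 and ketamine mouse 9, held about as few counts as each other and fewer than the other mice. The log2 fold change was -0.25 (SE 0.335) and became 0.033 without ketamine mouse 9 and -0.56 without saline mouse 10. Of the ratios between members, that of Clock to Npas2 differed little between the groups, at 2.25 ± 0.548 in saline and 2.24 ± 0.259 in ketamine mice (SD, 3 mice each).

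**Figure D1:**
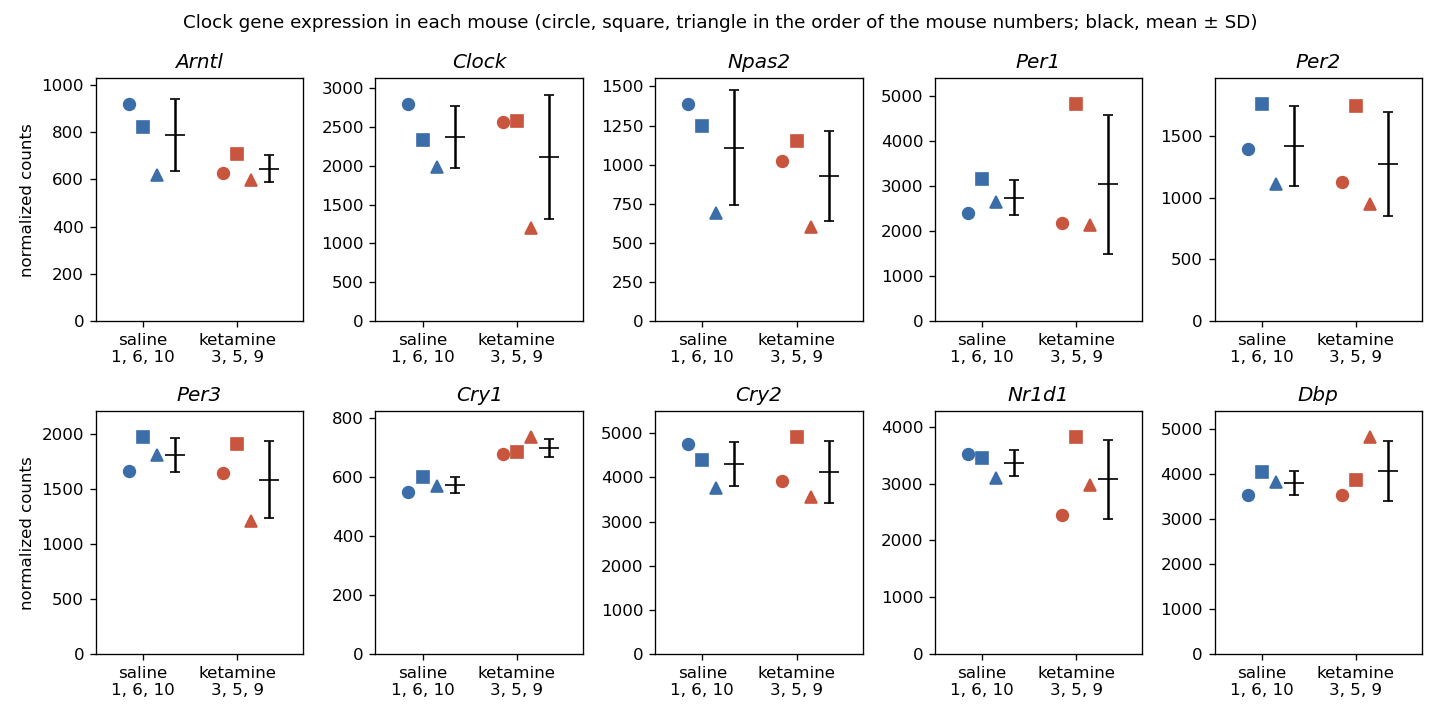
Normalized counts of the 10 clock genes, 1 panel a gene, with the mouse group on the horizontal axis and counts from 0 on the vertical axis. Points are single mice and black marks the mean ± SD of 3 mice. Cry1 is the only panel in which all 3 ketamine mice (679 to 735) lie above all 3 saline mice (550 to 601).

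Among the repressors, Cry1 had a higher and Cry2 a lower mean in ketamine mice, and neither passed the test. Cry1 (ENSMUSG00000020038, chromosome 10 from 84594447 to 84647799), which encodes the stronger repressor of the pair, had 550, 601 and 571 normalized counts in saline mice 1, 6 and 10, against 679, 686 and 735 for ketamine mice 3, 5 and 9. Every ketamine mouse was above every saline mouse, with little spread in either group. The means were 574 ± 25.8 and 700.1 ± 30.5 normalized counts (SD, 3 mice each; two-sided exact permutation p = 0.1, which is the lowest that 3 mice against 3 allow). On the log2 scale the fold change was 0.29 (SE 0.123; limma adjusted p = 0.865), and the 95% interval of the fold ran from 0.998 to 1.49. Leaving out any single mouse gave 0.25 to 0.32, and the change was 0.36 without ketamine mice 3 and 5 and 0.25 without saline mouse 10 and ketamine mouse 9, with no adjusted p past the threshold. Groups that did not overlap were found for 1 of 10 members and for 10.3% of all genes tested, 5.69% with ketamine higher and 4.66% with ketamine lower. The share among the members was near that among all genes.
Cry2 (ENSMUSG00000068742, chromosome 2 from 92243803 to 92274200) had 4747, 4402 and 3771 normalized counts in saline mice 1, 6 and 10, against 3914, 4906 and 3557 for ketamine mice 3, 5 and 9. The groups overlapped, and the log2 fold change was -0.07 (SE 0.166, 95% interval of the fold 0.727 to 1.25). It became 0.031 without ketamine mouse 9, 0.0047 without saline mouse 1 and -0.20 without ketamine mouse 5. Cry1 reached 0.135 ± 0.0179 of the normalized counts of Cry2 in saline and 0.173 ± 0.0334 in ketamine mice (SD, 3 mice each). The ratio of ketamine mouse 5, at 0.140, lay among those of the saline mice, at 0.116, 0.137 and 0.151.

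The 3 Per genes were highest in saline mouse 6 and ketamine mouse 5 in their groups. Per1 (ENSMUSG00000020893, chromosome 11 from 68908719 to 68923462), which besides the clock also responds to light, neuronal activity and stress hormones, had 2393, 3157 and 2653 normalized counts in saline mice 1, 6 and 10, against 2172, 4810 and 2123 for ketamine mice 3, 5 and 9. Ketamine mouse 5 thus exceeded every other mouse, while the other ketamine mice were below all saline mice. The log2 fold change of 0.05 (SE 0.32) became -0.34 without ketamine mouse 5 and -0.043 without saline mouse 1. The same mouse had the highest level of 7 of 14 genes that respond to neuronal activity, while saline mouse 10 and ketamine mouse 9 had that of 3 each and saline mouse 1 that of 1. Their summed normalized counts were 29937 in ketamine mouse 5, 26396 in saline mouse 10 and 22547 in ketamine mouse 9, and the part of this in Per1 was not tested.
Per2 (ENSMUSG00000055866, chromosome 1 from 93312561 to 93355907), a Per gene whose loss is known to disturb the rhythm, had 1396, 1758 and 1113 normalized counts in saline mice 1, 6 and 10, against 1127, 1747 and 948 for ketamine mice 3, 5 and 9. Its levels in the groups overlapped almost entirely, with a log2 fold change of -0.18 (SE 0.265) that became 0.0050 without ketamine mouse 9 and -0.44 without ketamine mouse 5.
Per3 (ENSMUSG00000028957, chromosome 4 from 150377761 to 150418774), whose promoter is shown above, had 1660, 1966 and 1802 normalized counts in saline mice 1, 6 and 10, against 1639, 1902 and 1206 for ketamine mice 3, 5 and 9. Only ketamine mouse 9 was far below the rest, and the log2 fold change was -0.22 (SE 0.187) with this mouse and -0.032 without it.

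Nr1d1 (ENSMUSG00000020889, chromosome 11 from 98629246 to 98636647), the receptor that represses Arntl, had 3529, 3450 and 3099 normalized counts in saline mice 1, 6 and 10, against 2447, 3815 and 2969 for ketamine mice 3, 5 and 9. Ketamine mice 3 and 9 were below all saline mice and ketamine mouse 5 above them. The log2 fold change of -0.15 (SE 0.18) became 0.0050 without ketamine mouse 3 and -0.32 without ketamine mouse 5. Nr1d1 shares 263 exon bases with Thra, a gene on the other strand with a mean of 20420 normalized counts, and the strand setting of the count is not stated.
Dbp (ENSMUSG00000059824, chromosome 7 from 52960458 to 52965525), the output factor, has one of the widest known daily swings of any clock transcript. It had 3546, 4060 and 3819 normalized counts in saline mice 1, 6 and 10, against 3531, 3867 and 4822 for ketamine mice 3, 5 and 9. Ketamine mouse 9 was above all other mice. Its highest level was 1.37 times its lowest. The log2 fold change was 0.09 (SE 0.153, 95% interval of the fold 0.828 to 1.36), and it was -0.042 without ketamine mouse 9. Dbp shares 491 exon bases with Sphk2, a gene on the other strand with a mean of 653 normalized counts.

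Per kilobase of exon, the level of the members followed an order that was only partly separated between genes. Over the 6 mice, Dbp had 1338 ± 162 and Nr1d1 1030 ± 155 normalized counts per kilobase (SD, n = 6), and Dbp was above Nr1d1 in 6 of 6 mice although their ranges overlapped. Nr1d1 was followed by Cry2 at 667 ± 87.2, with no overlap of their ranges, and by Per1 at 512 ± 181 (SD, n = 6), which was below Cry2 in 5 of 6 mice and above the range of the next gene. The remaining genes were Clock at 254 ± 65.7, Arntl at 245 ± 44.0, Per2 at 231 ± 59.0, Npas2 at 212 ± 65.1, Cry1 at 211 ± 24.4 and Per3 at 176 ± 28.4 normalized counts per kilobase (SD, n = 6). Each of these 6 overlapped its neighbour in the order, which held in 3 to 5 of 6 mice.

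Ketamine mouse 9 was outside the range of the saline mice for all 10 members, where it was outside that range for 68.8% of all genes tested. It was below every saline mouse for 8 members, namely the activators, the Per genes, Cry2 and Nr1d1, against 34.3% of all genes, and above every saline mouse for Cry1 and Dbp. The deepest of these differences from the saline mean were those of Clock, at -0.97 on the log2 scale, and Npas2, at -0.82. This library was also the one with the most olfactory bulb markers, and the part of that tissue in its clock genes was not tested. Ketamine mouse 3 was outside the saline range for 5 of 10 members (54.7% of all genes) and ketamine mouse 5 for 4 of 10 (49.4%), shares near those of all genes. Mouse 3 was below all saline mice for Per1, Per3, Nr1d1 and Dbp, and mouse 5 was above all of them for Per1, Cry2 and Nr1d1. Cry1 was above the saline range in all 3 ketamine mice.

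**Figure D2:**
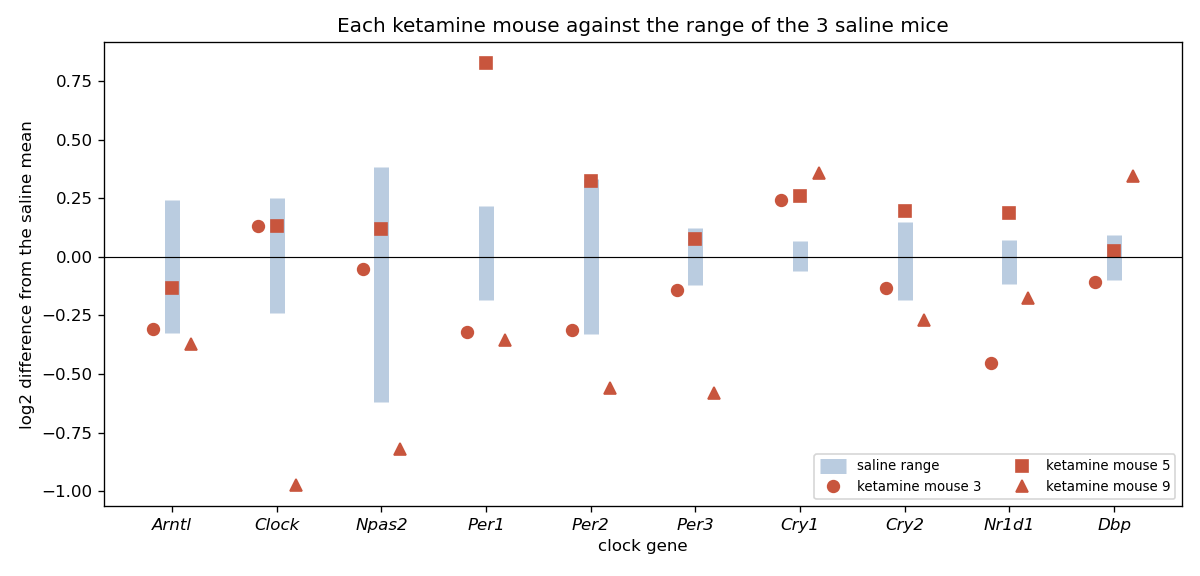
Difference of each ketamine mouse from the saline mean on the log2 scale (vertical axis) for the 10 clock genes (horizontal axis), with the range of the 3 saline mice as a blue bar. Mouse 9 (triangles) is outside the bar for all 10 genes, from -0.97 for Clock to 0.36 for Cry1, and mice 3 and 5 are outside it for 5 and 4 genes.

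To look for a difference in the time of collection, the genes known to peak from day to dusk (Per1, Per2, Per3, Nr1d1 and Dbp) were set against those known to peak from night to dawn (Arntl, Clock and Npas2). The contrast is the mean log2 value of the first less that of the second, relative to the saline mean. It would be larger in a mouse whose genes stand more towards dusk. It also grows when the night-to-dawn genes are low for another reason, so a high value alone does not give the phase. It was -0.36, 0.06 and 0.30 for saline mice 1, 6 and 10, against -0.19, 0.25 and 0.46 for ketamine mice 3, 5 and 9. The mice of both groups alternated along this scale, with a difference between the means of 0.17 and a standard deviation of 0.332 in saline and 0.330 in ketamine mice (n = 3 each). The difference rested on single mice, since it was -0.0082 without saline mouse 1, 0.028 without ketamine mouse 9, 0.32 without saline mouse 10 and 0.35 without ketamine mouse 3.
The phase groups did not stand in opposition from mouse to mouse. In ketamine mouse 9 both were below the saline mean, at -0.72 for the night-to-dawn and -0.27 for the day-to-dusk genes, and in saline mouse 10 likewise at -0.39 and -0.09. Both were above it in saline mouse 6, at 0.10 and 0.16, and in ketamine mouse 5, at 0.04 and 0.29. Saline mouse 1 was the only one in which the night-to-dawn genes were above the mean, at 0.29, and the day-to-dusk genes below it, at -0.07. Ketamine mouse 3 had -0.08 for night-to-dawn and -0.27 for day-to-dusk genes. The ratio of Dbp to Arntl, genes of opposite phase, was 3.86, 4.94 and 6.16 in saline mice 1, 6 and 10, against 5.64, 5.46 and 8.05 for ketamine mice 3, 5 and 9, and the groups overlapped. That of Nr1d1 to Arntl was 4.35 ± 0.589 in saline and 4.75 ± 0.761 in ketamine mice (SD, 3 mice each). The highest level of a member was between 1.34 and 2.33 times its lowest over the 6 mice, with a median of 1.59, where the median over all genes tested was 1.64. No mouse with a known hour of dissection was analysed here, so the contrast was not turned into hours, and a difference in the hour between the groups was not tested in any other way.

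**Figure D3:**
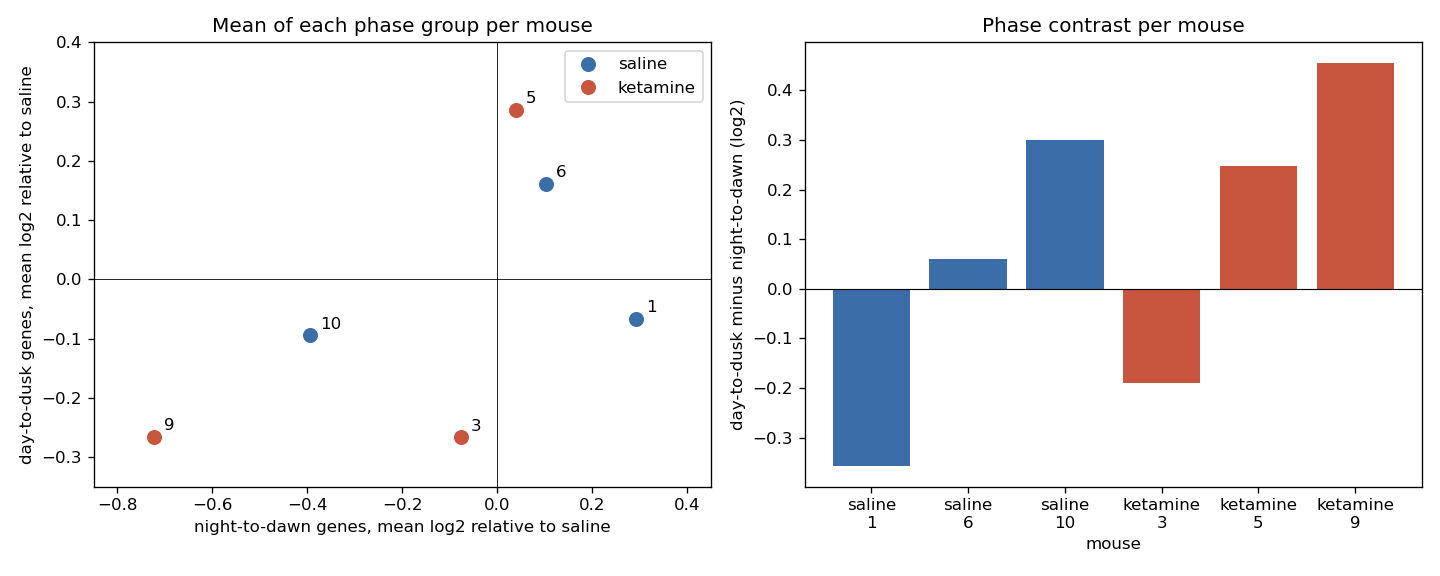
Left, the mean of the day-to-dusk genes (vertical axis) against that of the night-to-dawn genes (horizontal axis), both log2 relative to the saline mean, with the mouse number at each point. Right, the difference between them for each mouse, which runs from -0.36 to 0.30 in saline and from -0.19 to 0.46 in ketamine mice.

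Other genes of the clock were followed in a list of 21, all of which were tested. limma, edgeR and DESeq2 called 0 of them, and 0 had an unadjusted limma p under 0.05, beside 5.81% of all genes tested. Of the 21, 6 had a higher and 15 a lower mean in ketamine mice, and the median log2 fold change was -0.05. Ciart, an E-box-driven repressor, had 700.2, 841 and 839 normalized counts in saline mice 1, 6 and 10, against 549, 848 and 645 for ketamine mice 3, 5 and 9. Its highest and lowest values were thus both in ketamine mice (log2 fold change -0.24, SE 0.189). Nr1d2, the paralogue of Nr1d1, varied little, from 4165 to 4603 normalized counts among saline and from 4092 to 4286 among ketamine mice. Tef and Hlf encode the PAR-bZIP factors closest to DBP. Tef differed by -0.03 (SE 0.137) and Hlf by -0.34 (SE 0.214) on the log2 scale, and Hlf had 5158 in saline mouse 10, below the 5443 and 6367 of ketamine mice 3 and 5. Nfil3, which competes with DBP for D-boxes, had the smallest p of the list (limma adjusted p = 0.999), with 152 to 203 normalized counts in saline mice and 188, 188 and 311 in ketamine mice 3, 5 and 9. Arntl2, the paralogue of Arntl, differed by -0.33 (SE 0.211) and Rora, an activator of Arntl, by -0.24 (SE 0.179). Bhlhe41, another repressor that binds E-boxes, differed by 0.12 (SE 0.144). Fbxw11, which encodes a ubiquitin ligase subunit that takes part in PER breakdown, was the only one of the 21 whose groups did not overlap in either direction. Of all genes tested, 10.3% had groups that did not overlap in either direction, and 4.66% with ketamine lower. Fbxw11 had 4272 to 4838 normalized counts in saline and 3599 to 4186 in ketamine mice (log2 fold change -0.19, SE 0.127).

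**Figure D4:**
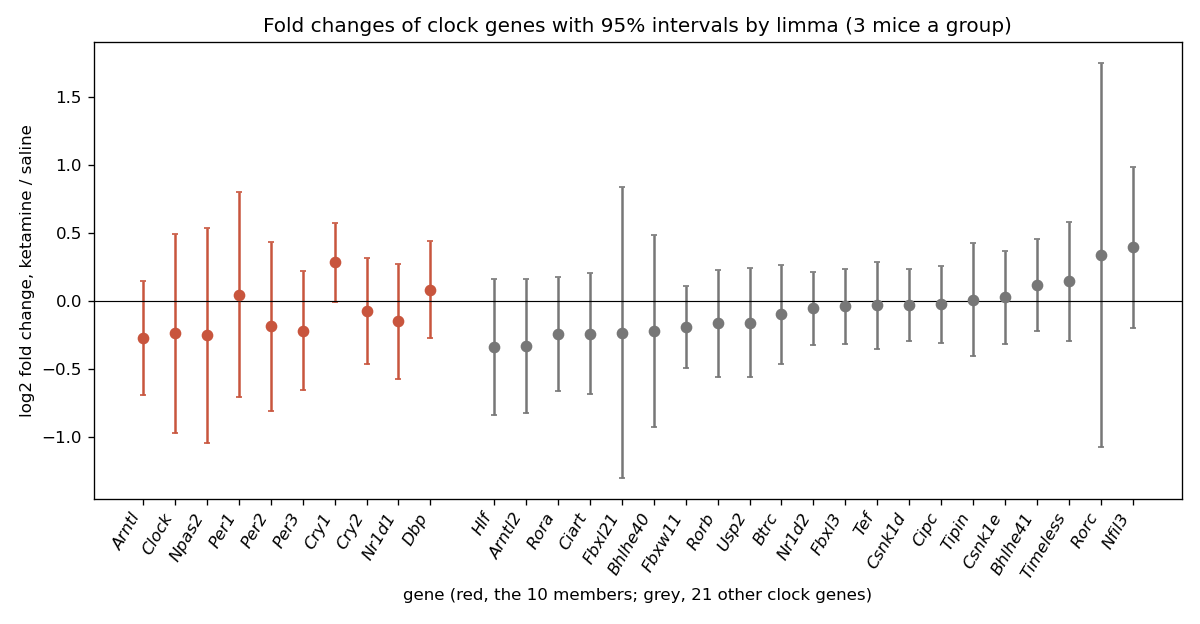
Log2 fold change of ketamine over saline (vertical axis) with 95% intervals by limma for the 10 clock genes (red) and 21 other clock genes (grey), 3 mice a group. Every interval spans 0, and that of Cry1, from -0.0030 to 0.58, comes nearest to leaving it out.

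Clock genes also take signals from body temperature, neuronal activity and stress hormones, and lists of such genes were compared in the same fit. limma, edgeR and DESeq2 called 0 genes of any of the 3 lists, beside 0%, 0% and 1.13% of all genes tested. By limma 1 gene, Zbtb16, had an unadjusted p under 0.05, beside 5.81% of all genes. Such a p was found by edgeR for Fosb (6.24% of all genes) and by DESeq2 for Fos, Fosb and Zbtb16 (6.54%). Of 8 temperature-responsive genes, 4 had a higher and 4 a lower mean in ketamine mice (median log2 fold change -0.05). The smallest p were those of Rbm3 at -0.22, Hsph1 at -0.21 and Hspa8 at -0.10. Of 14 activity-response genes, 12 had a higher and 2 a lower mean (median 0.63). The smallest p were those of Fos at 1.35 (SE 0.578), Btg2 at 0.96 (SE 0.417) and Fosb at 0.61 (SE 0.270), all with an adjusted p of 0.865 or more by limma. Fos had 141, 409 and 752 normalized counts in saline mice 1, 6 and 10, against 603, 1086 and 1100.4 for ketamine mice 3, 5 and 9, and saline mouse 10 lay above ketamine mouse 3. Of 10 genes that respond to glucocorticoids, the adrenal hormones with a daily rhythm, 6 had a higher and 4 a lower mean (median 0.11). The smallest p were those of Zbtb16 at -0.96 (SE 0.368; limma adjusted p = 0.797), Klf9 at -0.24 and Ddit4 at 0.45 on the log2 scale. Klf9, lower in ketamine mice, was the only gene of the 3 lists whose groups did not overlap. That was 10% of its list, beside 10.3% of all genes tested in either direction and 4.66% with ketamine lower. Fkbp5 and Sgk1, among the genes most used as a readout of these hormones, differed by 0.16 and -0.17. Saline mouse 10 was the highest mouse for both. Sgk1 had 1447, 1601 and 3246 normalized counts in saline mice 1, 6 and 10, against 1440, 1888 and 1928 for ketamine mice 3, 5 and 9.

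Genes outside the list that most resembled Dbp and Arntl over the 6 mice were looked up by Pearson's r of log2 values. The 5 nearest to Dbp were Farsa, Trim28, Mall, Yjefn3 and Ptpn18, with r between 0.985 and 0.992, and the 5 nearest to Arntl were Cap2, Faim2, Ccdc65, Vps18 and 2310057M21Rik, with r between 0.995 and 0.999 (6 mice). None of these is in the lists of clock genes. Cap2 had 9683, 8489 and 5465 normalized counts in saline mice 1, 6 and 10, against 5519, 6777 and 5208 for ketamine mice 3, 5 and 9, the order in which Arntl stood. With 6 points and 16127 genes to choose from, values of r as high as these describe the order of the mice only.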

How the data were processed

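RNA-seq of the PLc of 3 saline and 3 ketamine mice was analysed, with groups and mouse numbers taken from the sample titles and matched to the columns by that number. The numbers differ between groups, so nothing was paired. Per the study's methods, the authors used TopHat2 2.0.11 to align read pairs to mm9, counted them per gene with HTSeq and normalized with DESeq2. The deposited signal is counts divided by a size factor per library. Dividing by each library's smallest step returned whole reads for 100% of values, within 0.011. The annotation and strand setting are not given in the sources used here.

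Log2(normalized count + 1) was compared with limma 3.58.1 (R 4.3.3, prior variance trended on the mean) for the 16127 genes averaging 10 or more, with two-sided p-values and Benjamini-Hochberg adjustment over all of them, at a threshold of 0.05. Single genes also had an exact permutation test. The recovered reads in edgeR 4.0.16 and in DESeq2 1.42.0, pseudocounts of 0.1 and 5, a filter of 100 or none, TMM and upper-quartile scaling, no trend, and leaving out mice were the alternatives. Leaving out saline mouse 10 and ketamine mouse 9 together was chosen after seeing the data. The tests were also run on simulated reads. The simulated libraries did not differ in tissue, so that run does not cover such a difference. The members and gene lists were chosen with earlier results of these data known. Named genes are the members, of the other clock genes Ciart, Nr1d2, Tef, Hlf, Bhlhe41 and the 5 with the smallest p, the 3 smallest p of the temperature, activity and glucocorticoid lists, and the 5 genes most like Dbp and Arntl. Fkbp5, Sgk1 and the single tissue markers named were added after their values were seen. Gene places and exon lengths are those of GENCODE M1 on mm9. For 3 genes an older symbol was matched (Ciart as Gm129, Cipc, Drd1).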

Additional observations from a re-analysis of the deposited data

How the results depend on the processing

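Fold changes of the 10 clock genes were recomputed under 17 alternatives each, 170 in all. None was called, with a smallest adjusted p of 0.13, and 158 kept their direction. Arntl, Per3 and Cry1 kept it under every alternative run, none of which could tell the tissue from the treatment. The 12 that turned came from leaving out mice. With single mice left out in turn, the log2 fold change ran from -0.34 to 0.25 for Per1, -0.20 to 0.031 for Cry2, -0.32 to 0.0050 for Nr1d1, -0.42 to 0.13 for Clock, -0.56 to 0.033 for Npas2, -0.44 to 0.0050 for Per2 and -0.042 to 0.18 for Dbp. Without ketamine mice 3 and 5 it was -0.36 for Per1, and without saline mouse 10 and ketamine mouse 9 it was 0.012 for Clock and -0.038 for Dbp. The number of members whose groups did not overlap, 1 with all mice, was between 1 and 4 with single mice left out (3 without saline mouse 10, beside 31.8% of all genes tested, and 4 without ketamine mouse 5, beside 22%), 10 without ketamine mice 3 and 5, where ketamine mouse 9 stands alone and is assumed to vary like the saline mice (68.8% of all genes), and 3 without saline mouse 10 and ketamine mouse 9 (56.1%). Fewer mice overlap less by construction. The number of genes called over all genes was 0 with limma, 182 with DESeq2, 0 to 1 with single mice left out (1 without ketamine mouse 5 and 1 without ketamine mouse 9) and 587 without saline mouse 10 and ketamine mouse 9, with 0 members among them; the cause was not tested. The scalings moved the median log2 fold change of all genes by less than 0.1. The difference in phase contrast, 0.17 with all mice, was -0.0082 to 0.35 with single mice left out and 0.46 without ketamine mice 3 and 5, and it moved by less than the spread between mice under each alternative run.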
